A study of Mus musculus with 22 samples.

Results

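The genes described here are 6 matrix metalloproteinases, *Mmp2*, *Mmp3*, *Mmp10*, *Mmp13*, *Mmp14* and *Mmp19*, and 3 tissue inhibitors of metalloproteinases, *Timp1*, *Timp2* and *Timp3*. They were chosen by name, each matched 1 of the 55401 gene identifiers in the counts, and all 9 passed the filter on low counts in every fit. They were followed by RNA sequencing in 22 libraries of mouse embryonic fibroblasts (MEFs), primary cells grown from embryos of C57BL/6 mice after the head and viscera were removed, which become senescent when they are passaged serially in 21% oxygen. The *S6K1* set held 4 libraries of wild-type (WT) cells at passage 3 (early), 4 of WT cells at passage 8 (late) and 3 of *S6K1* knockout (KO) cells at passage 8. Of the *S6K1/S6K2* set, 4 libraries were early WT, 4 late WT and 3 from *S6K1/S6K2* double-knockout (DKO) cells at passage 8. The knockout alleles were inherited from the parents, so that the cells had lacked the kinases throughout. KO MEFs and their WT controls were littermates, whereas the WT controls of the DKO MEFs came from WT mothers at earlier stages of the breeding, so genotype and litter cannot be told apart in the *S6K1/S6K2* set. Replicates of a group were MEFs of different embryos, and whether early and late libraries came from the same MEFs was not given in the labels.

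S6K1 and S6K2 are ribosomal S6 kinases that act downstream of mTORC1. Senescent fibroblasts are known for a secretome rich in cytokines and in proteases that cut the extracellular matrix. Matrix metalloproteinases are zinc-dependent enzymes made as inactive precursors. Stromelysins (MMP3 and MMP10) degrade proteoglycans and activate other precursors, the collagenase MMP13 opens fibrillar collagen, and the gelatinase MMP2 digests denatured collagen and basement membrane. MMP14 stays in the plasma membrane, cuts collagen and, with TIMP2, activates the precursor of MMP2. TIMPs bind and block the active enzymes, and TIMP3 is the one held in the matrix.

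In cell culture, stromelysin and collagenase genes are classic targets of the transcription factor AP-1, which binds a short site close to their start. The promoters are shown because this site was found in those of *Mmp3*, *Mmp10* and *Mmp13*. The levels of these 3 genes varied most between libraries, and whether the site has a part in that was not tested. RefSeq (build GRCm38.p6) gave a promoter window, from 250 bases before the start to 50 after it, for 7 of the 9 genes, and *Mmp2* and *Mmp19* were not analysed here for their promoters. Each window was searched on both strands for the AP-1 site TGANTCA and for the ETS-family site known as PEA3, AGGAAG. The AP-1 site lay in the windows of *Mmp3*, *Mmp10* and *Mmp13* and in none of the other 4 windows, against 7.81% of 32851 promoter windows of all genes. Its first base lay 46 bases before the start of *Mmp3*, 63 before that of *Mmp10* and 35 before that of *Mmp13*. The PEA3 site lay in the windows of *Mmp3*, *Mmp13*, *Mmp14*, *Timp1* and *Timp3*, against 35.4% of all windows. The 2 motifs overlap in no letter where they were found here. The 120 bases before the start follow, 5′ to 3′, on the strand of the gene, with the AP-1 site in capitals, for the 3 genes that hold it and for *Mmp14* and *Timp3*, which hold none in the window and changed in the comparisons below. A match of letters does not show that a factor binds there.
*Mmp3* (chr9:7445702-7445821, plus strand): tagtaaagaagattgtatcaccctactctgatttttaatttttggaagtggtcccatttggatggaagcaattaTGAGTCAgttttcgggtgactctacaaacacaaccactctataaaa
*Mmp10* (chr9:7502222-7502341, plus strand): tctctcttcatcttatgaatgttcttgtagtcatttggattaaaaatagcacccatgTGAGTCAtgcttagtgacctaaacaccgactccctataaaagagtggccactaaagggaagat
*Mmp13* (chr9:7272394-7272513, plus strand): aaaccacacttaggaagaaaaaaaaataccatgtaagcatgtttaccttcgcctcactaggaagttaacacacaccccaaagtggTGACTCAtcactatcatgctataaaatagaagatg
*Mmp14* (chr14:54431478-54431597, plus strand): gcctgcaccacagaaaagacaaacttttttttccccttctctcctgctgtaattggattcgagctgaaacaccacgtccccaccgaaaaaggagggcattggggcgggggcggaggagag
*Timp3* (chr10:86300292-86300411, plus strand): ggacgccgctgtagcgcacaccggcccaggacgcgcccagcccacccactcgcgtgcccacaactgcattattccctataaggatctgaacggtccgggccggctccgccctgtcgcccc

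The total count per library was 10742454 to 17314832 (median 14651363.5), and 3 counts corresponded to 0.173 to 0.279 CPM, a count scaled to the size of its library. The scaling used TMM, which sets the libraries to a common base through genes that differ little between them. *Rps6kb1*, which encodes S6K1, was lower in KO libraries than in their late WT controls (log2 fold change −1.67, SE 0.19, adjusted *P* = 0.00744), and in DKO MEFs both *Rps6kb1* (−1.64, SE 0.15, adjusted *P* = 0.000786) and *Rps6kb2* (−3.95, SE 0.32, adjusted *P* = 0.000412) were lower. *Cdkn2a*, the locus of the senescence inhibitors p16 and p19Arf, which were not counted apart, was higher in late than in early WT MEFs of both sets (1.20 and 1.10). The other senescence checks were *Cdkn1a* and *Mki67*. With passage, *Cdkn1a* did not reach an adjusted *P* under 0.05 by edgeR in either set. *Mki67* was lower with passage in the *S6K1/S6K2* set only (−0.92, adjusted *P* = 0.00952), and lower in DKO than in late WT MEFs (−1.11, adjusted *P* = 0.0147). All 10 fibroblast markers were detected in every group, and their summed CPM was 28782 to 36499 in early and 19400 to 25948 in late WT MEFs of the *S6K1* set, and 30337 to 39305 in early and 19622 to 26598 in late WT MEFs of the *S6K1/S6K2* set. Of 20 macrophage markers, 19 were detected, *Emr4* was at 0, and their summed CPM was 505 to 1126 in early and 5445 to 11391 in late WT MEFs of the *S6K1* set, 3637 to 4938 in KO MEFs, 605 to 2029 in early and 7493 to 12891 in late WT MEFs of the *S6K1/S6K2* set, and 920 to 3460 in DKO MEFs. The cultures thus held macrophage transcripts in amounts that differed between the groups compared, and in bulk RNA fewer cells of a type and less RNA per cell cannot be told apart. Embryo sex was read from libraries with more counts from Y-linked genes than from *Xist*. They numbered 2 of 4 in early WT, 1 of 4 in late WT and 3 of 3 in KO MEFs of the *S6K1* set. In the *S6K1/S6K2* set they numbered 2 of 4 in early WT, 3 of 4 in late WT and 1 of 3 in DKO MEFs.

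The genes covered a wide range of levels. Per length, as CPM per kilobase of exon, *Timp1* was highest, with a median of 818 over the 22 libraries, followed by *Timp2* (483), *Mmp14* (346), *Mmp2* (159), *Timp3* (77.2), *Mmp3* (54.5), *Mmp19* (16.5), *Mmp13* (11.7) and *Mmp10* (2.04). The inhibitors *Timp1* and *Timp2* and the membrane enzyme *Mmp14* therefore led the order, and the stromelysin *Mmp10* was rare. Neighbors in this order were kept apart in most libraries and not in all. *Timp1* lay above *Timp2* in 19 of 22 libraries, *Timp2* above *Mmp14* in 17, *Timp3* above *Mmp3* in 15 and *Mmp3* above *Mmp19* in 20. Summed per length, the 6 proteinases came to 0.376 to 0.6004 of the 3 inhibitors in early WT, 0.353 to 0.501 in late WT and 0.166 to 0.372 in KO libraries of the *S6K1* set. The ratio in the *S6K1/S6K2* set was 0.398 to 0.617 in early WT, 0.367 to 0.510 in late WT and 0.442 to 0.719 in DKO libraries, so that the ranges of all groups compared overlapped.

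**Figure D1:**
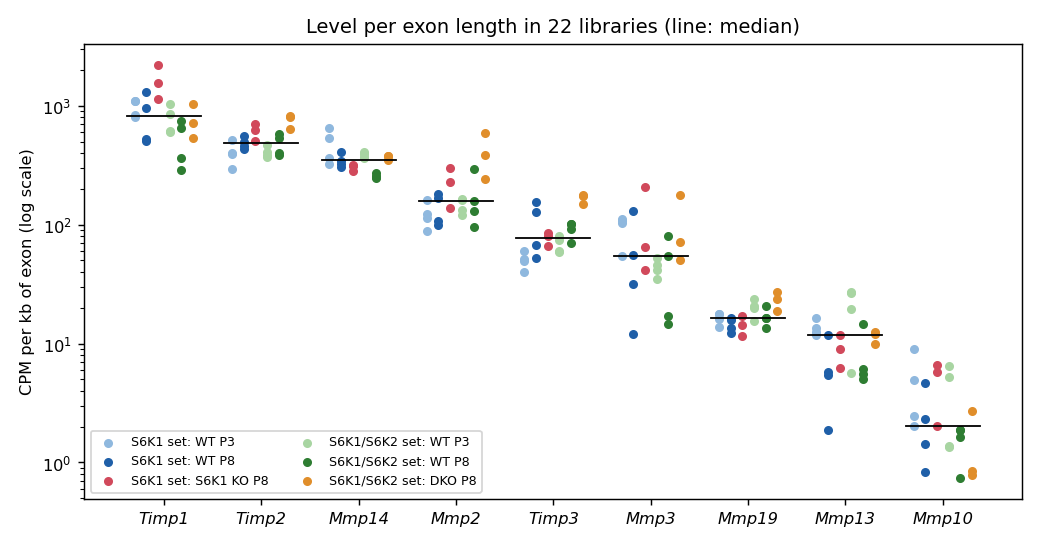
Level of each gene as CPM per kilobase of exon (log axis) in each of the 22 libraries, with genes in the order of their medians (black lines) and one color per group. *Timp1*, *Timp2* and *Mmp14* sit at the top with medians of 818, 483 and 346, and *Mmp10* at the bottom with 2.04, while *Mmp3*, *Mmp10* and *Mmp13* spread widely within groups.

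The first comparison asked how the proteinases and their inhibitors differed between late and early WT MEFs. *Mmp14* fell in the *S6K1/S6K2* set, and *Timp3* rose in the *S6K1* set. The other proteinases and inhibitors did not pass the test in either set. Each set thus had 1 of 9 genes called, against a background of 12.9% of all 14132 genes tested in the *S6K1* set and 13.2% of 14365 in the *S6K1/S6K2* set. The median log2 fold change of the 9 genes was −0.22 in the *S6K1* set, where that of all genes was −0.04, and −0.23 in the *S6K1/S6K2* set, where that of all genes was 0.01.

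*Mmp14* (ENSMUSG00000000957.11) measured 1059, 1017, 936 and 971 CPM in the 4 early WT libraries of the *S6K1/S6K2* set and 658, 641, 702 and 666 CPM in the 4 late ones. The groups did not overlap and lay close together within themselves, at 996 ± 53.4 and 667 ± 25.6 CPM (SD, n = 4 each). The log2 fold change was −0.55 (SE 0.11, adjusted *P* = 0.00657), and the gene was called whichever of the 11 libraries was left out. In the *S6K1* set the early libraries ran from 833 to 1672 CPM and the late ones from 798 to 1055 CPM, so that the groups overlapped (−0.44, SE 0.22, adjusted *P* = 0.209). With Y-linked expression as a covariate, *Mmp14* was called there too (−0.52, adjusted *P* = 0.0395). The effect of passage on *Mmp14* did not differ detectably between the sets, with a difference of −0.14 (95% interval −0.63 to 0.35).

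*Timp3* (ENSMUSG00000020044.13) measured 325, 419, 401 and 490 CPM in early WT libraries of the *S6K1* set and 428, 1264, 1037 and 554 CPM in late ones. Late libraries 2 and 3 stood well above the rest, and late library 1 lay among the early ones. The log2 fold change was 1.00 (SE 0.30, adjusted *P* = 0.0478), just inside the threshold. The call was kept in 2 of the 11 fits that left out 1 library, those without late WT library 1 or 4, and was lost without any early WT or any KO library or late WT library 2 or 3 (adjusted *P* = 0.143 without late library 2), and in the fit on the 2 groups compared (adjusted *P* = 0.0827). In the *S6K1/S6K2* set *Timp3* measured 488, 481, 652 and 605 CPM in early and 754, 819, 822 and 567 CPM in late libraries (0.44, SE 0.16, adjusted *P* = 0.0785), and it was called there without late library 4, the lowest of the late ones (0.54, adjusted *P* = 0.0307).

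The collagenase *Mmp13* (ENSMUSG00000050578.10) had the lowest log2 fold changes of the 9 genes in both sets without passing the test. In the *S6K1* set it measured 31.8, 35.9, 43.5 and 33.8 CPM in early libraries and 15.4, 31.3, 5.02 and 14.6 CPM in late ones. These groups did not overlap (−1.14, SE 0.40, adjusted *P* = 0.0826), as was the case for 18.3% of all genes tested in that set. In the *S6K1/S6K2* set the values were 52.0, 15.1, 71.4 and 71.9 CPM in early and 39.4, 13.3, 15.0 and 16.5 CPM in late libraries (−1.29, SE 0.46, adjusted *P* = 0.0875). Early library 2 was as low as the late libraries there, and without it the gene was called (−1.61, adjusted *P* = 0.0186). *Mmp13* was also called without late library 1 of that set (−1.80, adjusted *P* = 0.0198), without late library 2 of the *S6K1* set (−1.65, adjusted *P* = 0.0134), with Y-linked expression as a covariate in the *S6K1* set (−1.45, adjusted *P* = 0.0445) and by DESeq2 in both sets (adjusted *P* = 0.0405 and 0.0169). *Mmp14* was the only one of the 9 genes whose groups did not overlap in the *S6K1/S6K2* set, against 20.3% of all genes tested.

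The stromelysins spread widely within groups. *Mmp3* (ENSMUSG00000043613.8) measured 97.7, 201, 192 and 186 CPM in early and 236, 57.2, 21.7 and 101 CPM in late WT libraries of the *S6K1* set, a range of 10.9-fold within the late group (−0.71, SE 0.63, adjusted *P* = 0.506). In the *S6K1/S6K2* set it measured 62.2 to 94.9 CPM in early libraries and 145, 26.2, 98.3 and 30.4 CPM in late ones (−0.04, SE 0.54, adjusted *P* = 0.972). Late MEFs thus held both the highest and the lowest *Mmp3* levels of each WT set. *Mmp10* (ENSMUSG00000047562.3), at 3.52 to 15.6 CPM in early and 1.44 to 8.00 CPM in late libraries of the *S6K1* set and 2.32 to 11.1 and 1.27 to 3.25 CPM in the *S6K1/S6K2* set, had log2 fold changes of −1.01 (SE 0.58, adjusted *P* = 0.285) and −1.20 (SE 0.58, adjusted *P* = 0.185). *Mmp10* rested on 17 to 268 counts per library in these groups. *Mmp3* and *Mmp10* are close paralogs, and how reads shared between them were assigned was not given in the sources used here.

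The remaining 4 genes did not pass the test for passage. The gelatinase *Mmp2* (ENSMUSG00000031740.8) measured 269 to 491 CPM in early and 302 to 548 CPM in late libraries of the *S6K1* set and 364 to 498 and 288 to 885 CPM in the *S6K1/S6K2* set (0.18, SE 0.28 and 0.25, SE 0.34). *Mmp19* (ENSMUSG00000025355.7), which cuts basement membrane proteins, stayed between 42.1 and 81.4 CPM in the 16 WT libraries (−0.18, SE 0.15 and −0.23, SE 0.17). *Timp2* (ENSMUSG00000017466.9) measured 1138 to 2013 CPM in early and 1690 to 2171 CPM in late libraries of the *S6K1* set and 1439 to 1826 and 1502 to 2266 CPM in the *S6K1/S6K2* set (0.28, SE 0.20 and 0.26, SE 0.17). For *Timp1* (ENSMUSG00000001131.11), the early range was 710 to 975 CPM and the late one 445 to 1163 CPM in the *S6K1* set, and 536 to 918 and 256 to 655 CPM in the *S6K1/S6K2* set (−0.22, SE 0.31 and −0.58, SE 0.31). Adjusted *P* for these 4 genes was 0.233 to 0.719 over both sets. The difference between the sets in the effect of passage was called by edgeR for none of the 9 genes, against 0.712% of 14886 genes. An unadjusted *P* under 0.05 was reached by 0 of the 9 and by 1421 of all genes, and DESeq2 called none of them either. Macrophage markers moved with passage, 19 of 19 tested being higher in the *S6K1* set (median log2 fold change 2.94) and 18 of 19 in the *S6K1/S6K2* set (2.51). The summed fibroblast markers were lower in late than in early WT libraries of both sets without overlap. Of the 10 markers, 2 were called lower and none higher in each set. Log2 fold changes lay above 0 for 4 of the 10 in the *S6K1* set (median −0.21, highest 1.55). In the *S6K1/S6K2* set they did so for 3 of the 10 (median −0.37, highest 1.07). Epithelial or mesothelial markers, a list of 7, summed to 56.0 to 102.5 CPM in early and 18.0 to 38.7 CPM in late libraries of the *S6K1* set and to 87.8 to 117.6 and 12.9 to 40.6 CPM in the *S6K1/S6K2* set. Of the 5 tested, 3 were called lower in each set, and 1 had a log2 fold change above 0 in the *S6K1* set (2.51, not called). The part of these markers in the differences of *Mmp14*, *Mmp13* and *Timp3* was not tested.

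**Figure D2:**
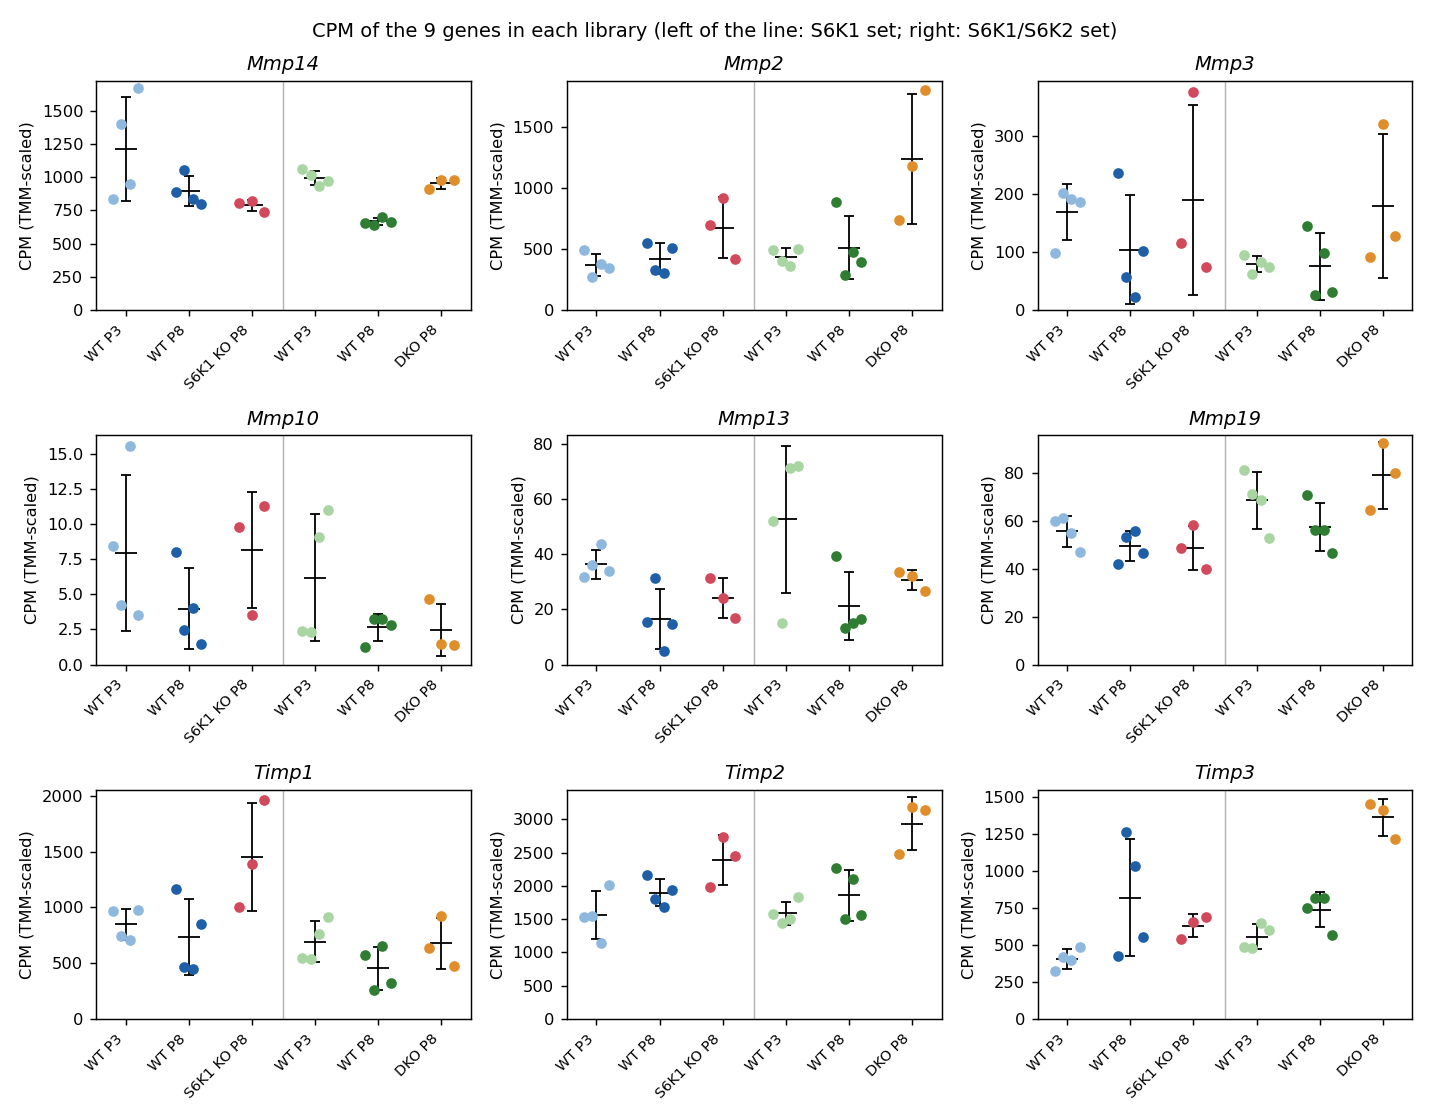
TMM-scaled CPM (linear axes from 0) of the 9 genes in each library, where each point is a library, bars mark the mean and SD, P3 and P8 are passages 3 and 8, and the gray line separates the *S6K1* set (left) from the *S6K1/S6K2* set (right). In the *S6K1/S6K2* set, the late WT libraries of *Mmp14* (641 to 702 CPM) lie below all early WT and DKO libraries, and the DKO libraries of *Timp3* (1222 to 1458 CPM) above all WT libraries of that set.

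The second comparison set late *S6K1* KO against late WT MEFs. None of the 9 genes passed the test (2 had an unadjusted *P* under 0.05), and 6 of the 9 log2 fold changes lay above 0, with a median of 0.55 against −0.01 for all genes. Calls were rare throughout this comparison, at 0.0425% of 14132 genes by edgeR (6 genes, and 1499 at an unadjusted *P* under 0.05), and DESeq2 called 250 genes and none of these 9. Groups did not overlap for 13.2% of all genes and for none of the 9.

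*Timp1* came nearest. It measured 1163, 470, 445 and 851 CPM in late WT and 1005, 1388 and 1966 CPM in KO libraries, a log2 fold change of 0.99 (SE 0.33, 95% interval 0.26 to 1.72, adjusted *P* = 0.325). KO libraries 2 and 3 exceeded every late WT library, and KO library 1 lay below late WT library 1. *Timp1* lies on chromosome X, and libraries with more counts from Y-linked genes than from *Xist* numbered 1 of 4 in late WT and 3 of 3 in KO MEFs. Embryo sex thus differed between these groups, a limit for all 9 genes in this comparison. With Y-linked expression added to the model, the log2 fold change of *Timp1* was 1.31 (adjusted *P* = 0.211).

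Among the proteinases, *Mmp2* measured 548, 327, 302 and 509 CPM in late WT and 695, 917 and 417 CPM in KO libraries (0.68, SE 0.30, adjusted *P* = 0.449). *Mmp3* measured 116, 376 and 74.2 CPM in KO libraries, a 5.06-fold range beside the 10.9-fold range of the late WT libraries (0.86, SE 0.67, adjusted *P* = 0.705), and without KO library 2 its log2 fold change was −0.14. For *Mmp10*, the KO libraries had 9.82, 3.50 and 11.3 CPM against 1.44 to 8.00 CPM in late WT MEFs (1.03, SE 0.62, adjusted *P* = 0.597). *Mmp13* gave 31.4, 24.1 and 16.8 CPM in KO libraries, within the late WT range but for 1 library that lay just above it (0.55, SE 0.43, adjusted *P* = 0.705). *Mmp14* (804, 821 and 736 CPM) and *Mmp19* (48.5, 58.1 and 39.7 CPM) had log2 fold changes of −0.19 (95% interval −0.70 to 0.32) and −0.02 (−0.38 to 0.34). *Timp2* measured 1984, 2739 and 2451 CPM in KO libraries (0.33, SE 0.21, adjusted *P* = 0.629) and *Timp3* 542, 657 and 692 CPM (−0.38, SE 0.33, adjusted *P* = 0.730). The 3 KO libraries of *Timp3* fell inside the range of the 4 late WT libraries, which was wide.

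The third comparison set late DKO against late WT MEFs. Here *Mmp14* and *Timp3* were higher in DKO MEFs, and 8 of the 9 log2 fold changes lay above 0, with a median of 0.57 against −0.01 for all genes. The 2 genes called compare with 4.78% of 14365 genes called in either direction and 0.821% called higher. Groups did not overlap for *Mmp14*, *Timp2* and *Timp3*, as for 16.4% of all genes. This comparison shares its late WT libraries with the passage comparison of the same set, so the values of a gene in the 2 comparisons are not independent. Embryo sex differed here too, with Y-linked counts above *Xist* in 3 of 4 late WT and 1 of 3 DKO libraries. With Y-linked expression as a covariate, *Mmp14* and *Timp3* were still called. The paper reports that KO and DKO MEFs stopped growing sooner than WT MEFs when passaged serially. Genotype and time since arrest thus cannot be told apart at passage 8, in this comparison or in that of KO MEFs.

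*Timp3* measured 1458, 1418 and 1222 CPM in DKO libraries, above all 4 late WT libraries (754, 819, 822 and 567 CPM) and all other libraries of that set. The means were 1366 ± 126 CPM (SD, n = 3) and 740 ± 120 CPM (SD, n = 4), and the log2 fold change was 0.87 (SE 0.17, adjusted *P* = 0.0138). It was called in 10 of the 11 fits that left out a library, all but the one without DKO library 2 (adjusted *P* = 0.0752), and missed the threshold in the fit on all 6 groups (adjusted *P* = 0.0629).

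*Mmp14* measured 909, 977 and 975 CPM in DKO libraries, against 641 to 702 CPM in late WT libraries and 936 to 1059 CPM in early WT libraries of that set. The DKO libraries overlapped the early WT ones, at 954 ± 38.9 CPM (SD, n = 3). The log2 fold change against late WT was 0.50 (SE 0.11, adjusted *P* = 0.0281), and it was 0.49 to 0.54 in the fits that left out 1 library. The call was lost without late WT library 2 (adjusted *P* = 0.0759), late WT library 4 (0.05003), DKO library 2 (0.117) or DKO library 3 (0.0835), with no filter on low counts (0.0539), in the fit on the 2 groups compared (0.0825) and in the fit on all 6 groups (0.122).

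*Timp2* and *Mmp2*, whose proteins act with MMP14 at the cell surface, came close to the threshold. *Timp2* measured 2483, 3188 and 3142 CPM in DKO and 2266, 1502, 2105 and 1556 CPM in late WT libraries (0.65, SE 0.18, adjusted *P* = 0.0700), without overlap. *Mmp2* measured 735, 1180 and 1802 CPM in DKO and 885, 288, 478 and 398 CPM in late WT libraries (1.26, SE 0.36, adjusted *P* = 0.0773). Late WT library 1, the highest of its group for both genes, lay above the lowest DKO library of *Mmp2*, and without it both genes were called (*Mmp2* 1.67, adjusted *P* = 0.0140, and *Timp2* 0.77, adjusted *P* = 0.0391). DESeq2 called both as well (adjusted *P* = 0.00683 each), *Timp2* was called with no filter on low counts (0.0289), and *Mmp2* without DKO library 1 (1.54, adjusted *P* = 0.0364) and in the fit on all 6 groups (0.0386).

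The other 5 genes did not pass the test, and their groups overlapped. *Mmp3* measured 90.5, 321 and 127 CPM in DKO and 145, 26.2, 98.3 and 30.4 CPM in late WT libraries (1.25, SE 0.58, adjusted *P* = 0.284). *Mmp13* measured 33.6, 31.9 and 26.5 CPM in DKO libraries (0.52, SE 0.49, adjusted *P* = 0.637), above 3 of the 4 late WT libraries and below the fourth. *Mmp19* measured 64.4, 92.3 and 80.1 CPM (0.45, SE 0.18, adjusted *P* = 0.204), *Timp1* 633, 923 and 476 CPM (0.57, SE 0.34, adjusted *P* = 0.415) and *Mmp10* 4.64, 1.45 and 1.36 CPM (−0.11, SE 0.65, adjusted *P* = 0.956).

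Macrophage markers moved with this comparison too. Of the 19 tested, 18 were lower in DKO MEFs (median log2 fold change −2.40), and the summed CPM of the list was 920 to 3460 in DKO against 7493 to 12891 in late WT libraries. Of 10 fibroblast markers 1 was higher and none lower, and the median log2 fold change of that list was 0.26, and their summed CPM was 25033 to 27910 in DKO against 19622 to 26598 in late WT libraries. In the *S6K1* set none of the 19 macrophage markers was called between KO and late WT MEFs by edgeR, though all 19 had log2 fold changes below 0 (median −0.87). The part of these markers in the differences of *Timp3*, *Mmp14*, *Timp2* and *Mmp2* was not tested.

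**Figure D3:**
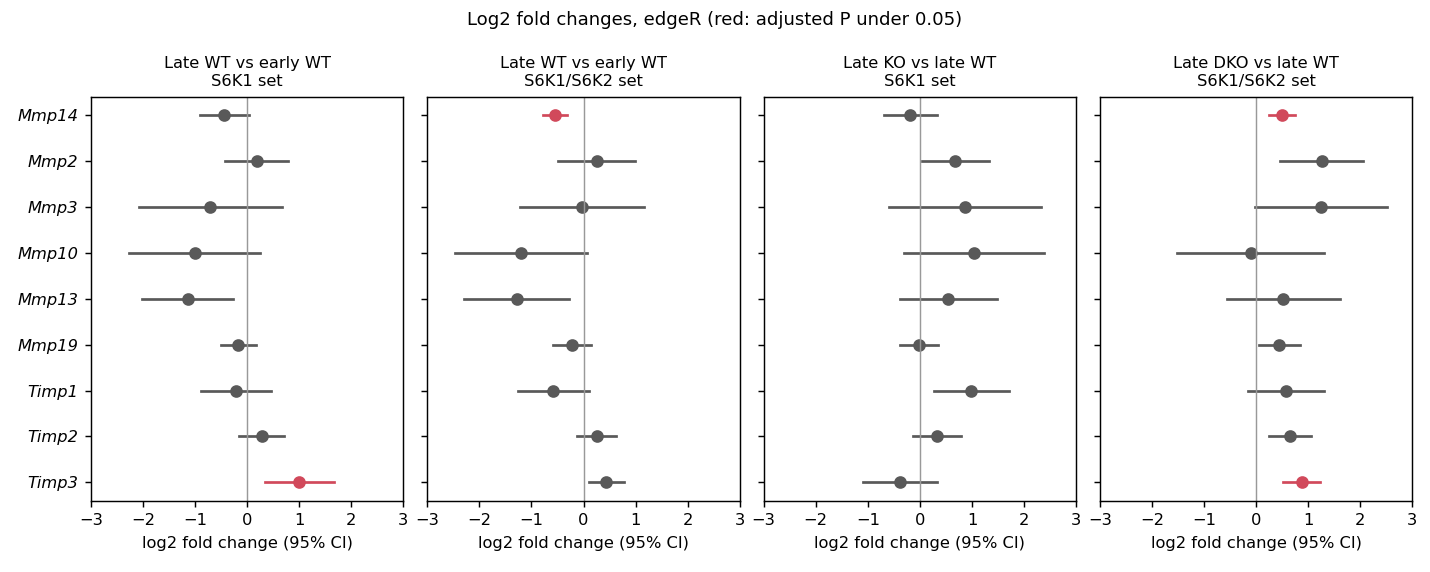
Log2 fold changes (points) with 95% intervals (lines) of the 9 genes in the 4 comparisons, by edgeR, with genes of adjusted *P* under 0.05 in red. *Timp3* is red for passage in the *S6K1* set, *Mmp14* for passage in the *S6K1/S6K2* set and both for DKO against late WT MEFs, while no gene is red for KO against late WT MEFs.

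Whether the genotype effect differed between the sets was tested directly. None of the 9 genes was called by edgeR (2 had an unadjusted *P* under 0.05), against 0.00672% of 14886 genes (1 gene, *Rps6kb2*, and 1626 at an unadjusted *P* under 0.05), and none was called by DESeq2, which called 63 genes. The smallest unadjusted *P* values were those of *Timp3*, whose log2 fold change was 1.26 higher for DKO than for KO (95% interval 0.47 to 2.05, adjusted *P* = 0.302), and *Mmp14*, 0.70 higher (0.17 to 1.23, adjusted *P* = 0.342). Both genes were thus called in the DKO comparison and not in the KO comparison without a difference between the comparisons that passed the test. *Mmp10* differed by −1.13 with a wide interval (−3.13 to 0.88, adjusted *P* = 0.717). For *Timp1* the difference was −0.41 (−1.46 to 0.64) and for *Mmp2* 0.59 (−0.44 to 1.63).

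Within groups, some of the genes varied together. Over the 22 libraries, as deviations of log2 CPM from the group means, Pearson's *r* was 0.68 for *Timp1* and *Timp2*, 0.64 for *Mmp2* and *Mmp3*, 0.62 for *Mmp3* and *Timp1* and 0.60 for *Mmp3* and *Timp2*. These 4 were the highest of the 36 pairs, and each was above 0.4 within either MEF set. *Mmp3*, *Mmp10* and *Mmp13* lie near each other on chromosome 9, each with an AP-1 site in its promoter window. Their *r* was −0.25 for *Mmp3* and *Mmp10*, 0.45 for *Mmp3* and *Mmp13* and 0.10 for *Mmp10* and *Mmp13*. *Timp3* and *Timp1* went in opposite directions in the sets, at −0.67 in the *S6K1* set and 0.52 in the *S6K1/S6K2* set. The libraries share their depth scaling and cell makeup, so these values describe the cultures and carry no *P* value.

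Among 13756 genes compared in the same way, the one whose deviations were most like those of *Mmp14* was *Srpk2*, a kinase of splicing factors (*r* = 0.92). *Timp2* was most like the cadherin *Cdh6* (0.87), *Mmp2* like *Chn1* (0.90) and *Timp3* like *Fam174b* (0.87). *Mmp10* was most like *Havcr2*, an immune receptor gene expressed in macrophages (0.90), and *Mmp19* like *Cyp2f2* (0.90). The nearest genes were *Gm12824* for *Mmp3* (0.91), *Tmem151a* for *Timp1* (0.91) and *Ubxn8* for *Mmp13*, whose best match was the weakest (0.73). Each is the best of 13756 over 22 libraries, a choice that raises the value.

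Some counts are uncertain for another reason. On the GENCODE vM1 annotation, *Mmp19*, *Timp1* and *Timp3* overlap genes on the opposite strand (*1110012D08Rik*, *Syn1* and *Syn3*), which reached at most 886, 77 and 408 counts in a library, and *Timp2* overlaps *BC100451* on its own strand (at most 222 counts). *Mmp14* overlaps *Gm11067*, which has no row in the counts. The lowest counts of *Timp1*, *Timp2* and *Timp3* in a library were far above those of their partners, at 3702, 19561 and 5454, whereas *Mmp19*, at 525 to 1473 counts, was of the order of its partner. The strand setting of the counting was not given in the sources used here.

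Of the other 17 matrix metalloproteinases and *Timp4* looked up, 9 had enough counts to be tested, and the other 9, among them the neutrophil collagenase *Mmp8*, the collagenase homologs *Mmp1a* and *Mmp1b* and *Timp4*, reached at most 32 counts in a library. *Mmp12*, the macrophage elastase, was the only one called in any comparison. It was thus 1 of 9 tested in each passage comparison, beside 12.9% of all genes called in the *S6K1* set and 13.2% in the *S6K1/S6K2* set. Another gene of the list had a larger log2 fold change with passage in the *S6K1* set (2.66) and was not called. *Mmp12* measured 1.501 to 3.96 CPM in early and 7.22 to 13.5 CPM in late WT libraries of the *S6K1* set (2.05, SE 0.38, adjusted *P* = 0.00389), and 0.918 to 10.9 and 22.2 to 34.8 CPM in the *S6K1/S6K2* set (2.45, SE 0.58, adjusted *P* = 0.0205). Early and late libraries did not overlap in either set. In KO libraries *Mmp12* measured 21.7, 8.42 and 17.5 CPM (0.71, SE 0.37, adjusted *P* = 0.541) and in DKO libraries 23.1, 10.1 and 11.2 CPM (−1.01, SE 0.60, adjusted *P* = 0.421).

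A list of 24 other genes of pericellular proteolysis, of which 23 were tested in the *S6K1* set and 22 in the *S6K1/S6K2* set, was read in the same way. With passage, 2 genes rose and 2 fell in the *S6K1* set, where 12.9% of all genes were called, and 2 rose and 3 fell in the *S6K1/S6K2* set, where 13.2% were. None was called in KO MEFs by edgeR, and in DKO MEFs 2 were higher and 1 lower, beside 4.78% of all genes called. The median log2 fold changes of the list were 0.13, −0.05, 0.07 and 0.02 in that order of comparisons, near those of all genes.

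*Serpine2*, a secreted inhibitor of thrombin and plasminogen activators, was called in 3 comparisons. It measured 149 to 212 CPM in early and 318 to 531 CPM in late WT libraries of the *S6K1* set (1.07, SE 0.19, adjusted *P* = 0.00318), and 124 to 278 and 330 to 460 CPM in the *S6K1/S6K2* set (1.00, SE 0.22, adjusted *P* = 0.0128). DKO libraries measured 618, 888 and 761 CPM, higher still (0.93, SE 0.24, adjusted *P* = 0.0450), whereas KO libraries lay between 324 and 441 CPM (−0.06, SE 0.20). The DKO libraries of *Serpine2* thus lay above every WT library of their set. The same held for the inhibitors *Timp2*, *Timp3* and *Reck* (below) and not for the inhibitor *Timp1*.

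*Adam8*, a membrane metalloproteinase of leukocytes, also passed in 3 comparisons. It rose with passage from 11.4 to 24.3 CPM in early to 37.9 to 100.3 CPM in late WT libraries of the *S6K1* set (1.91, SE 0.32, adjusted *P* = 0.00202) and from 26.9 to 47.8 CPM to 90.7 to 107.9 CPM in the *S6K1/S6K2* set (1.504, SE 0.23, adjusted *P* = 0.00223). In DKO libraries it measured 33.4, 14.6 and 17.9 CPM (−2.22, SE 0.27, adjusted *P* = 0.00251). KO libraries measured 47.1, 60.3 and 50.6 CPM (−0.32, SE 0.33, adjusted *P* = 0.776). Macrophage markers were lower in DKO MEFs too, and their part in the difference of *Adam8* was not tested. *Adamts4*, an aggrecan-cutting proteinase, was lower in late WT MEFs of both sets (−1.18, SE 0.24, adjusted *P* = 0.00691 and −1.24, SE 0.26, adjusted *P* = 0.0102).

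The remaining calls were chosen for naming after their values were seen. *Adam19* was lower with passage in the *S6K1* set (−0.97, adjusted *P* = 0.0462). *Adam12* (−1.15, adjusted *P* = 0.00355) and *Furin* (−0.37, adjusted *P* = 0.0298), whose product activates the precursor of MMP14, were lower with passage in the *S6K1/S6K2* set. *Reck*, a membrane-anchored inhibitor of several matrix metalloproteinases, was higher in DKO MEFs, at 48.8, 64.1 and 84.8 CPM against 27.7 to 42.6 CPM in late WT libraries (0.88, SE 0.20, adjusted *P* = 0.0306).

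**Figure D4:**
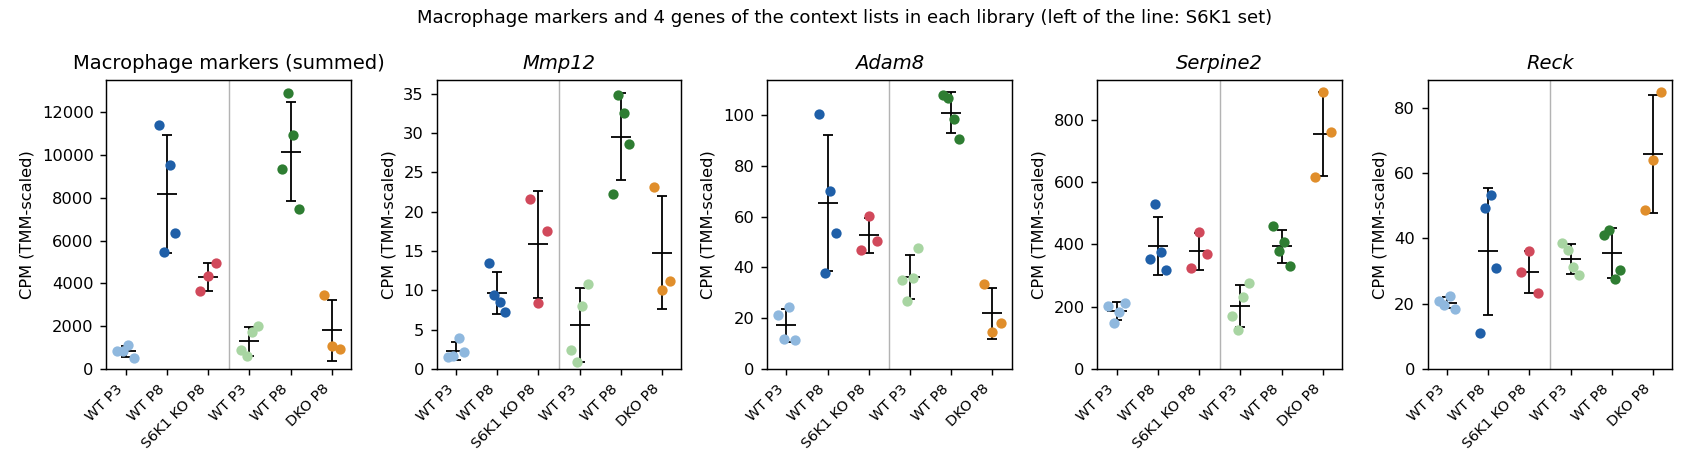
TMM-scaled CPM (linear axes from 0) of the summed macrophage markers and of *Mmp12*, *Adam8*, *Serpine2* and *Reck* in each library, where each point is a library, bars mark the mean and SD, and the gray line separates the *S6K1* set (left) from the *S6K1/S6K2* set (right). *Adam8* has its DKO libraries (14.6 to 33.4 CPM) far below the late WT ones of that set, as has the macrophage sum, while *Serpine2* and *Reck* have theirs above.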

How the data were processed

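RNA was sequenced from 22 libraries of MEFs in 6 groups taken from the sample labels. The deposited values are raw counts of reads per gene, which the authors left without normalization. The paper's methods name CASAVA, TopHat, the mm9 build, HTSeq and DESeq2, whereas the submitters' processing notes name STAR 2.7.1a, the mm10 build and DESeq2 1.28.1; which of these made the counts, the annotation release and the strand setting were not given in the sources used here. Symbols and exon lengths came from GENCODE vM1 (mm9), which held 58.8% of the identifiers (97.0% of the counts) and all 9 genes. Levels per length thus rest on exon models that may differ from those used for counting.

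In R 4.3.3, edgeR 4.0.16 was run with filterByExpr, TMM and the quasi-likelihood *F* test (robust fit) on the 3 groups of a MEF set, without covariates. Differences between the sets were tested as interactions over all 22 libraries. Benjamini-Hochberg adjustment ran over all genes tested, with a threshold of 0.05, and called means below it. Total counts were 10742454 to 17314832, and errors between libraries include biological spread. No 2 libraries of a group agreed within sampling noise. Library numbers only name libraries.

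The alternatives were DESeq2 1.42.0, RLE scaling, no filter on low counts, a covariate of mean Y-linked expression, fits on either the 2 groups compared or all 6, and leaving out each library in turn. The edgeR script was tested on simulated data. The 9 genes, the lists and the markers were chosen with earlier results of these data known. All 9 genes were named in every comparison, other matrix metalloproteinases where called in any, genes of pericellular proteolysis where called in at least 2, and for each of the 9 the gene with the highest correlation. *Adam19*, *Adam12*, *Furin* and *Reck*, each called in 1 comparison, were added after their values were seen. The other libraries of the study were not analysed here.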

Additional observations from a re-analysis of the deposited data

Results flagged for a closer look

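In groups of 4 libraries, 36 combinations of a gene and a group were checked for a library far from the others, by its gap to the nearest library divided by the range of the group (Dixon's test). Chance flags about 1 group in 20, and 2 of the 36 were flagged. In early WT MEFs of the *S6K1* set, library 1 had 97.7 CPM of *Mmp3*, against 186, 192 and 201 CPM in the others (gap over range 0.848). In late WT MEFs of the *S6K1/S6K2* set, library 1 had 39.4 CPM of *Mmp13*, against 13.3, 15.0 and 16.5 CPM in the others (0.879). The same library was also the highest of its group for *Mmp2*, *Mmp3*, *Mmp19* and *Timp2*. The cause was not tested.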

How the results depend on the processing

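No paired analysis was possible because the labels share no replicate numbers between groups and do not tie libraries to litters. The fall of *Mmp14* with passage in the *S6K1/S6K2* set held under every alternative run (log2 fold change −0.59 to −0.53). The number of the 9 genes called moved more. For passage in the *S6K1* set it was 1 and became 2 by DESeq2, 3 with the Y-linked covariate (*Mmp13*, *Mmp14* and *Timp3*), 0 in the fit on the 2 groups, and 0 to 1 when 1 library was left out. For passage in the *S6K1/S6K2* set it was 1 and became 2 by DESeq2 and 1 to 2 with 1 library left out. For DKO against late WT it was 2 and became 4 by DESeq2, 1 in the fit on the 2 groups (*Timp3*), 1 in the fit on all 6 groups (*Mmp2*), and 0 to 4 with 1 library left out (0 without DKO library 2, 4 without late WT library 1). For KO against late WT and for both differences between the sets it was 0 throughout. Over all genes, the 1827 called for passage in the *S6K1* set became 3288 with the Y-linked covariate. The 6 for KO became 250 by DESeq2, 43 without the filter, 37 with the covariate, 16 in the fit on all 6 groups and 2 to 9 with 1 library left out. The 1892 for passage in the *S6K1/S6K2* set became 885 to 2247 with 1 library left out. The 686 for DKO became 1165 by DESeq2 and 97 to 783 with 1 library left out (97 without DKO library 2, 157 without DKO library 3). For the difference in the effect of passage, 106 became 218 by DESeq2, and for that of genotype, 1 became 63 by DESeq2, 3 without the filter and 1 to 5 with 1 library left out. The cause of these shifts was not tested. Log2 fold changes changed sign in 14 of the 54 results, none of them called. With the Y-linked covariate *Mmp14* was 0.15 in KO MEFs and the passage difference of *Mmp13* between the sets 0.064; the genotype difference of *Mmp13* was 0.0077 by DESeq2 and 0.00052 with RLE scaling. With 1 library left out, the values ran from −0.14 to 1.66 (*Mmp3*) and −0.18 to 0.11 (*Mmp19*) in KO MEFs, −0.91 to 0.20 (*Mmp10*) in DKO MEFs, and −0.16 to 0.43 (*Mmp2*) and −0.59 to 0.23 (*Mmp3*) for passage in the *S6K1/S6K2* set. For the passage difference they ran from −0.37 to 0.23 (*Mmp2*), −0.78 to 0.35 (*Mmp10*), −0.68 to 0.33 (*Mmp13*), −0.33 to 0.0048 (*Mmp14*), −0.20 to 0.012 (*Mmp19*) and −0.20 to 0.069 (*Timp2*), and for the genotype difference from −0.40 to 1.40 (*Mmp3*) and −0.52 to 0.49 (*Mmp13*).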
